A study of Mus musculus with 15 samples.

Results

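Chemokines are small secreted proteins that steer migrating cells, and chemokine receptors are the G protein-coupled receptors that read them. The genes were chosen by name, as those whose symbol begins with Ccl, Ccr, Cxcl, Cxcr, Xcl, Xcr or Ackr followed by a number, begins with Cx3c, or is Pf4 or Ppbp. This gave 28 genes of the 4567 listed in at least 1 of the 4 deposited gene tables, of which 27 are described. They are 14 ligands and 13 receptors, all annotated as protein coding. RNA was sequenced in 15 libraries from 5 sorted populations of spleen T cells, with 3 libraries each, in a mouse model of acute graft-versus-host disease (aGvHD). On day 7 after transfer of C57Bl6 donor T cells, together with donor bone marrow cells, into irradiated Balb/C mice, CD8 cells were sorted as Flica-positive or Flica-negative and CD4 cells as Flica-negative, Flica being a fluorescent label for active caspase-1. The controls, on day 0, were Flica-negative CD4 and CD8 cells of untreated C57Bl6 mice. They had not been transferred, so activation, irradiated host, transfer and time cannot be told apart in a comparison of day 7 with day 0. Flica-positive CD4 cells were too few to be sequenced. The authors give ranges for the control and aGvHD mice whose splenocytes were sorted, but not the number behind each library.

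In lymphoid tissue, naive T cells carry the receptors Ccr7, for entry into lymph nodes and the T cell zone, and in part Cxcr5 and Ccr9, for B cell follicles and the small intestine. Activated T cells replace them with receptors for ligands made at inflamed sites, such as Cxcr3, Ccr2, Cxcr6 and Cx3cr1, and they secrete ligands of their own, above all Ccl3, Ccl4 and Ccl5. Other members of the family, such as Ccr1, Cxcr2, Ccl6 and Cxcl2, are best known from neutrophils and monocytes, and Pf4 and Ppbp from platelets.

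Values below are normalized counts, that is, read counts divided by the authors' size factor of each library, and are given in replicate order. Fold changes are ratios of group means unless given as log2, where the error is the standard error of the fit. A gene was called at an adjusted p below 0.05 (edgeR, quasi-likelihood F test, adjusted by the Benjamini-Hochberg method over all 4567 listed genes). A gene is in the tables only where the authors' own test of these libraries selected it, so a p-value here is no independent evidence. Genes outside the tables, among them Ccr4, Cxcr4, Ccl22, Xcl1 and the Ackr genes, were not analysed here. Libraries hold sums of cells, so fewer cells of a type and less RNA per cell cannot be told apart. The listed genes took 2143579 to 3184674 counts in the 12 control and Flica-negative libraries and 7310375 to 11046043 in the 3 Flica-positive ones, against size factors of 0.836 to 1.249. Marker lists moved with the groups. The 13 listed neutrophil markers of 13 summed to 56.9 to 144 normalized counts in control CD4 cells, 57.3 to 116 in control CD8 cells, 2667 to 7786 in Flica-negative CD4 cells, 11826 to 18114 in Flica-negative CD8 cells and 199908 to 385957 in Flica-positive CD8 cells. Elane and Ly6g were at 0 in all control libraries. The 11 listed macrophage and monocyte markers of 14 summed to 206 to 295, 134 to 208, 294 to 777, 996 to 2096 and 18288 to 37653 in the same order. The 7 listed B cell markers of 8 went the other way, with 6059 to 8166, 5863 to 8598, 403 to 646, 357 to 425 and 638 to 875, and Ms4a1 was at 0 in every Flica-negative library of day 7. Of 10 T cell markers only Cd8a is listed. It held 18353 to 21642 in control, 12817 to 14967 in Flica-negative and 9348 to 11492 in Flica-positive CD8 cells, against 42.5 to 116 and 4.41 to 10.4 in control and Flica-negative CD4 cells.

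**Figure D1:**
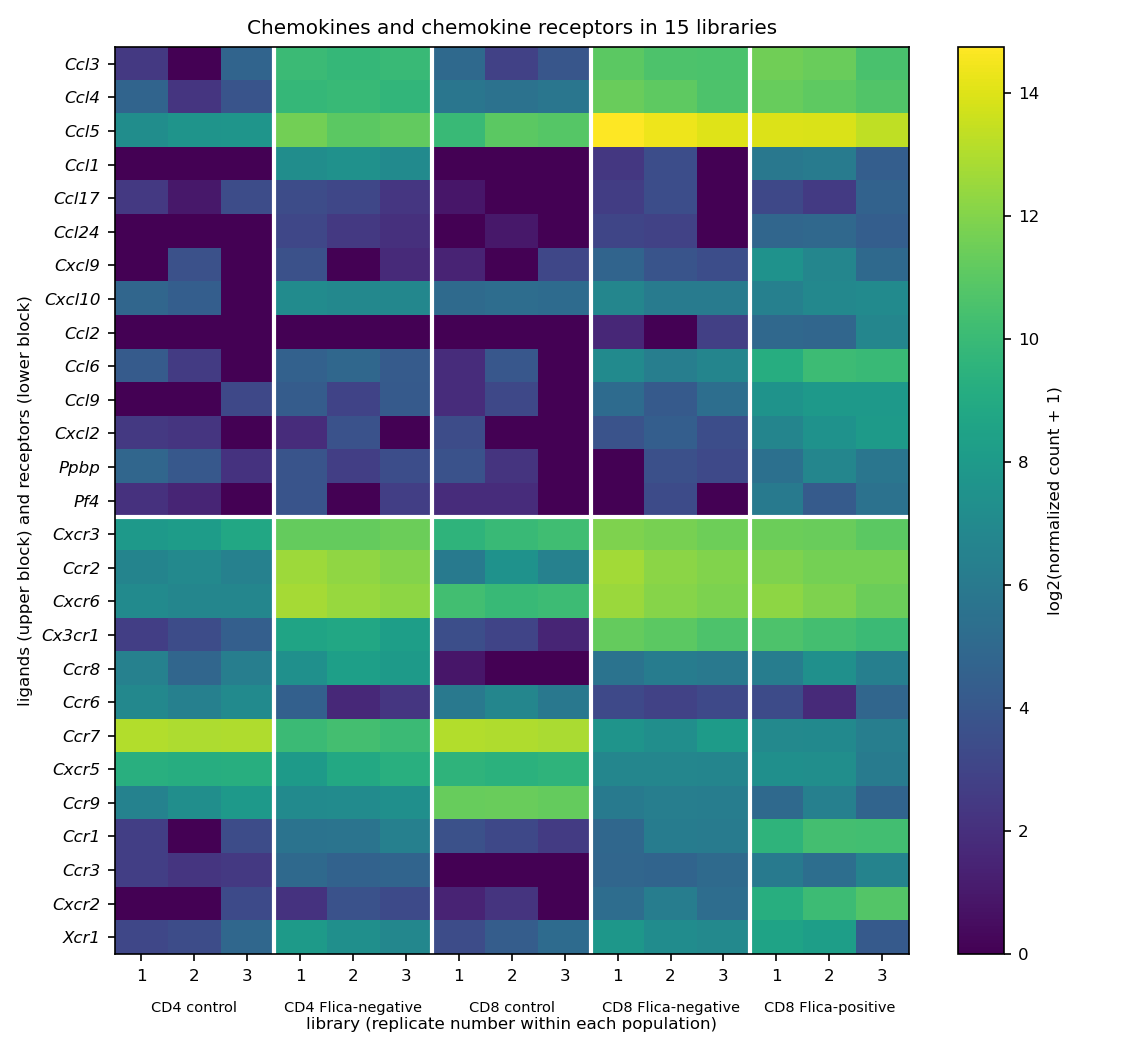
Heat map of log2(normalized count + 1) of the 27 genes (rows, ligands above the horizontal line, receptors below) in the 15 libraries (columns, 3 per population, numbered by replicate). Ccr7 was the brightest row in the 6 control libraries, Ccl5 in the 6 CD8 libraries of day 7, and rows such as Ccr1, Cxcr2 and Ccl6 were brightest in the 3 Flica-positive libraries.

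On day 0 Ccr7 stood out. Per kilobase of merged exons, which allows levels of different genes to be compared, Ccr7 had the highest level of the 27 genes in control CD4 and CD8 cells, with means of 4080 and 4043 normalized counts per kb, and Ccl5 came next with 192 and 1706. Between control CD4 and CD8 cells 5 of the 27 genes were called, 1 higher and 4 lower in CD4 cells, beside 12% of all listed genes (6.50% higher and 5.45% lower). Ccr9 (ENSMUSG00000029530, chr9:123678439-123784330, plus strand), the receptor for the intestinal and thymic chemokine Ccl25, was at 2580, 2607 and 2465 normalized counts in control CD8 cells and at 91.6, 154 and 238 in control CD4 cells. The groups did not overlap, and the level was 15.8-fold lower in CD4 cells (log2 fold change -3.98 ± 0.23, adjusted p = 5.3e-16). Cxcr6 (ENSMUSG00000048521, chr9:123806475-123811760, plus strand), the receptor of Cxcl16, was at 1250, 971 and 1117 in CD8 against 134, 107 and 107 in CD4 control cells, and the groups were far apart (log2 fold change -3.26 ± 0.21, adjusted p = 7.2e-15). Ccl5 and Cxcr3 were also lower in CD4 control cells, 8.87-fold and 3.04-fold, with adjusted p = 1.4e-13 and 4.9e-07. Ccr8 was the member called higher in CD4 control cells. It had 1 read in the 3 control CD8 libraries together, so that the ratio of summed counts was 210 with an exact 95% interval of 37.3 to 8343, which covers counting error only (adjusted p = 3.5e-06). Ccr7, at 8071 ± 221 in CD4 and 7996 ± 537 in CD8 control cells (SD, n = 3), had overlapping groups and adjusted p = 1.

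The inflammatory CC ligands Ccl3, Ccl4 and Ccl5 rose in both lineages by day 7. Ccl3 (ENSMUSG00000000982, chr11:83647844-83649355, minus strand), also called MIP-1 alpha, went from 4.47, 0 and 25.8 normalized counts in control to 1053, 921 and 1013 in Flica-negative CD4 cells, a 98.7-fold rise (log2 fold change 6.55 ± 0.66, adjusted p = 3.1e-06). In CD8 cells it went from 31.7, 6.27 and 14.4 to 2064, 1569 and 1491, a 97.8-fold rise (log2 fold change 6.60 ± 0.49, adjusted p = 1.2e-06). Every day 7 library was above every control library. Ccl4 (ENSMUSG00000018930, chr11:83662584-83664683, plus strand), or MIP-1 beta, went from 25.7, 3.87 and 13.3 to 918, 970 and 840 in CD4 cells, or 63.6-fold (log2 fold change 6.01 ± 0.45, adjusted p = 2.3e-07). CD8 cells went from 53.7, 45.7 and 53.9 to 2674, 2171 and 1562, or 41.8-fold (log2 fold change 5.38 ± 0.28, adjusted p = 1.5e-07). The groups were again far apart in each lineage. Ccl5 (ENSMUSG00000035042, chr11:83525778-83530518, minus strand), or RANTES, which binds Ccr1 and Ccr3, started higher. It went from 151, 201 and 202 to 3094, 2104 and 2329 in CD4 cells (13.6-fold, log2 fold change 3.76 ± 0.23, adjusted p = 4.7e-08) and from 1011, 2083 and 1820 to 27476, 20869 and 16396 in CD8 cells (13.2-fold, log2 fold change 3.72 ± 0.28, adjusted p = 1.4e-06). The day 7 CD4 libraries of Ccl5 thus lay just above the control CD8 libraries, and the day 7 CD8 libraries far above both. On day 7 all 3 ligands were lower in Flica-negative CD4 than in Flica-negative CD8 cells, Ccl3 by 1.72-fold, Ccl4 by 2.35-fold and Ccl5 by 8.60-fold (adjusted p = 0.0051, 0.00016 and 3.6e-10). For none of them was a difference between the day 7 responses of the lineages called (adjusted p = 1, 0.47 and 1 for the interaction). With Ccl5 the difference of the responses was 0.04 ± 0.34 on the log2 scale.

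**Figure D2:**
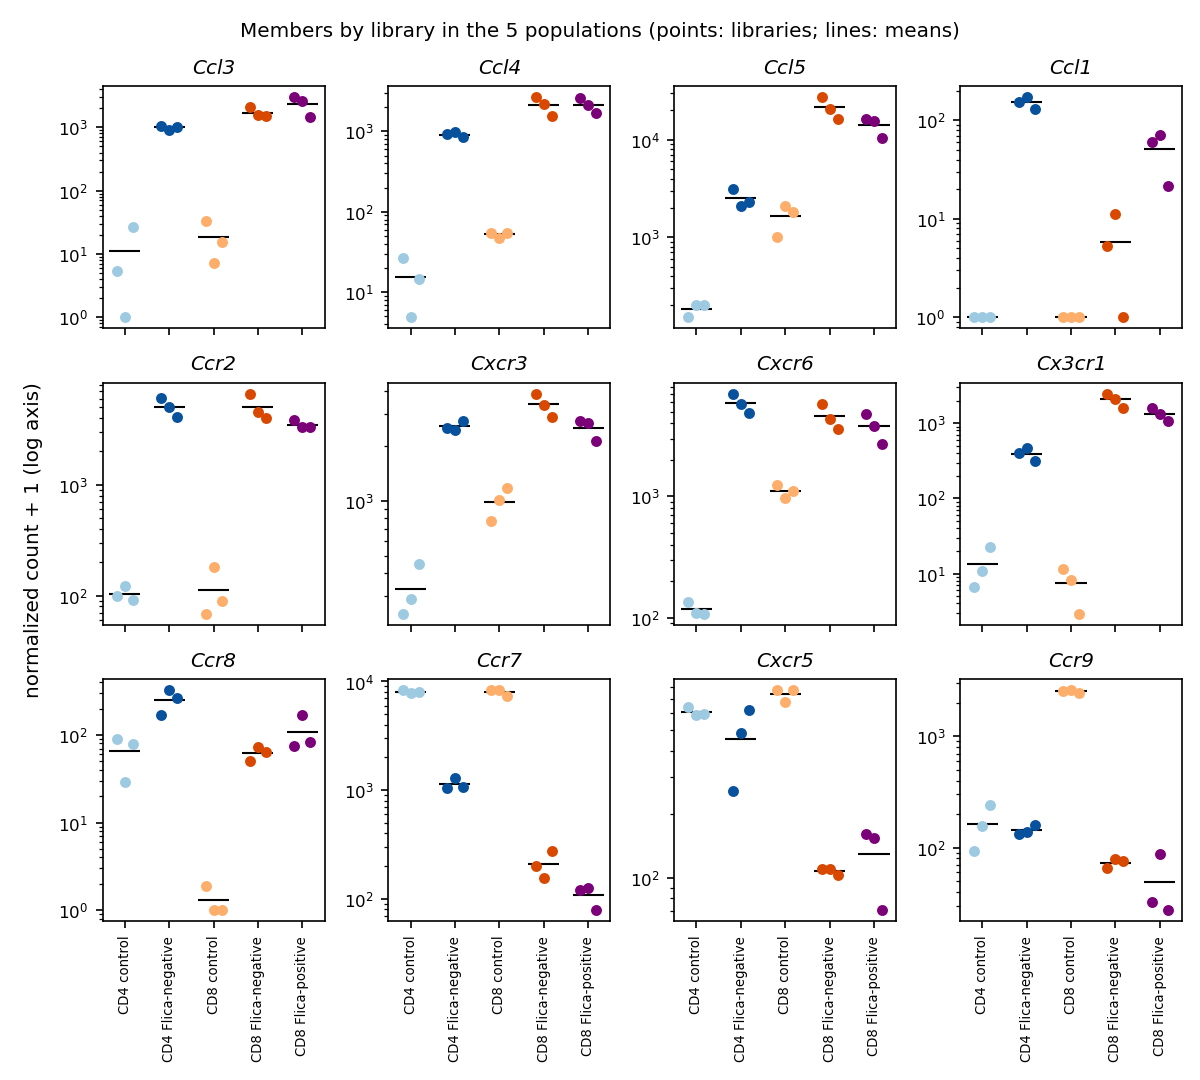
Normalized count + 1 on log axes for 12 of the genes, 1 panel each. Points are libraries, lines are means of 3 libraries, and columns are the 5 populations. Control points of Ccl3, Ccl4, Ccr2 and Cx3cr1 sit far below the day 7 points, those of Ccr7 far above, and those of Ccr9 are high only in control CD8 cells, at 2580, 2607 and 2465.

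Of the 27 genes, 19 were called between Flica-negative and control CD8 cells, 15 higher and 4 lower, beside 66.5% of all listed genes (37.5% higher and 29.0% lower). Between Flica-negative and control CD4 cells it was 15, of which 13 were higher and 2 lower, beside 57.6% (31.1% higher and 26.5% lower). Called genes thus made up 70.4% and 55.6% of the 27, close to the shares among all listed genes, and they leaned to the higher side. The median log2 fold change of the 27 genes was 3.05 in CD8 and 2.31 in CD4 cells, or 2.78 and 1.96 with genes at 0 in a group set to their lower bound, beside 0.66 and 0.06 over all listed genes. Scaling by the trimmed mean of M values (TMM) over the listed genes moved the median of all genes by -0.42 in the CD8 and -0.09 in the CD4 comparison, and gave 13 higher and 4 lower calls in CD8 cells, beside 64.9% of all listed genes (33.2% and 31.7%). In CD4 cells it gave 12 and 2, beside 57.0% (28.6% and 28.4%).

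Receptors of effector T cells were among the genes that rose. Among the receptors of this kind (Ccr2, Ccr6, Ccr8, Cx3cr1, Cxcr3 and Cxcr6), 5 rose and Ccr6 fell in each lineage. Of 4 receptors known from myeloid cells (Ccr1, Ccr3, Cxcr2 and Xcr1), all 4 were called higher in CD8 cells and 3 in CD4 cells. Cxcr2 rose 28.1-fold in CD8 cells (adjusted p = 0.0015) and was not called in CD4 cells. Ccr2 (ENSMUSG00000049103, chr9:124101950-124113557, plus strand), the receptor of Ccl2, was at 98.3, 122 and 89.8 normalized counts in control and 6102, 4984 and 4060 in Flica-negative CD4 cells (48.9-fold, log2 fold change 5.61 ± 0.24, adjusted p = 4.1e-09). In CD8 cells it was at 67.8, 181 and 88.5 and 6653, 4578 and 3998 (45.2-fold, log2 fold change 5.50 ± 0.39, adjusted p = 9.9e-07). The lineages overlapped on both days. Cxcr3 (ENSMUSG00000050232, chrX:101731535-101734269, minus strand), the receptor of Cxcl9 and Cxcl10, was at 239, 287 and 449 and then 2502, 2445 and 2740 in CD4 cells (7.88-fold, log2 fold change 2.98 ± 0.24, adjusted p = 4.9e-07). CD8 cells had 777, 1012 and 1179 and then 3878, 3363 and 2895 (3.42-fold, log2 fold change 1.77 ± 0.21, adjusted p = 3.1e-05). The gap between the lineages narrowed from 3.04-fold to 1.32-fold, and on day 7 it was not called (adjusted p = 0.077, and 0.039 without CD8 Flica-negative replicate 3). Cxcr6 reached 7056, 5743 and 4862 in Flica-negative CD4 and 5793, 4336 and 3606 in Flica-negative CD8 cells. These overlapped on day 7, although the CD4 rise was 50.7-fold (log2 fold change 5.67 ± 0.22, adjusted p = 2.3e-09) and the CD8 rise 4.11-fold (log2 fold change 2.04 ± 0.21, adjusted p = 1.1e-05). On day 7 the lineages were not called apart for Cxcr6 (log2 fold change 0.36 ± 0.17, adjusted p = 0.16, and adjusted p = 0.016 without CD8 Flica-negative replicate 1). Per kilobase, Cxcr6 had the highest level of the 27 genes in Flica-negative CD4 cells.

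Cx3cr1 (ENSMUSG00000052336, chr9:119901616-120069879, minus strand), the fractalkine receptor of cytotoxic effector cells and monocytes, was at 10.6, 7.16 and 1.92 in control and 2481, 2118 and 1608 in Flica-negative CD8 cells, a 316-fold rise (log2 fold change 8.26 ± 0.45, adjusted p = 1.6e-07). In CD4 cells it was at 5.58, 9.67 and 21.4 and 397, 466 and 312, a 32.1-fold rise (log2 fold change 4.96 ± 0.46, adjusted p = 1.4e-06). Control libraries of both lineages overlapped near 0, and on day 7 the CD8 libraries were all above the CD4 libraries. Ccr6 (ENSMUSG00000040899, chr17:8236043-8257141, plus strand), the receptor of Ccl20, was at 118, 83.2 and 132 in control and 22.0, 2.23 and 4.0 in Flica-negative CD4 cells, 11.8-fold lower (log2 fold change -3.53 ± 0.74, adjusted p = 0.0013). CD8 cells had 61.7, 107 and 58.7 and 8.52, 6.53 and 8.63, 9.58-fold lower (log2 fold change -3.24 ± 0.58, adjusted p = 0.00066). B cells also express Ccr6, and all 7 listed B cell markers fell in each lineage. Their part in the fall of Ccr6 was not tested.

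The homing receptors fell in CD8 cells, and fell less or were not called in CD4 cells. Ccr7 (ENSMUSG00000037944, chr11:99144196-99155077, minus strand) was at 8340, 8273 and 7377 normalized counts in control and 199, 154 and 276 in Flica-negative CD8 cells, 38.1-fold lower (log2 fold change -5.25 ± 0.24, adjusted p = 5.7e-08). CD4 cells had 8321, 7902 and 7989 and 1050, 1298 and 1060, 7.10-fold lower (log2 fold change -2.83 ± 0.16, adjusted p = 2.7e-08). Control libraries of the lineages overlapped, and on day 7 every CD4 library was above every CD8 library. Cxcr5 (ENSMUSG00000047880, chr9:44511787-44561877, minus strand), the receptor of the follicular chemokine Cxcl13, was at 773, 679 and 773 in control and 110, 109 and 102 in Flica-negative CD8 cells, 6.94-fold lower (log2 fold change -2.79 ± 0.25, adjusted p = 5.4e-06). CD4 cells had 640, 590 and 596 and 257, 486 and 622, with overlapping groups and no call (log2 fold change -0.42 ± 0.29, adjusted p = 0.23). Follicular helper cells among CD4 T cells and B cells both express Cxcr5. The summed B cell markers were at 6059 to 8166 in control and 403 to 646 in Flica-negative CD4 cells. In CD8 cells they were at 5863 to 8598 and 357 to 425. The part of either cell type in the Cxcr5 values of the 2 lineages was not tested. Ccr9 fell from 2580, 2607 and 2465 to 65.0, 77.5 and 74.2 in CD8 cells, 35.3-fold (log2 fold change -5.14 ± 0.22, adjusted p = 3.9e-08). In CD4 cells it was at 91.6, 154 and 238 and 131, 137 and 159, with overlapping groups (log2 fold change -0.18 ± 0.38, adjusted p = 0.7). Ccr9 and Cx3cr1 overlap other annotated genes in GENCODE M21, as do Cxcr6 (Fyco1), Cxcr5 (Bcl9l), Ccl2 (Gm17268) and Ccl6 (E230016K23Rik), and whether reads were counted by strand is not given in the sources used here.

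Ccl1, a ligand made by activated T cells and mast cells, and its receptor Ccr8, known from regulatory and type 2 helper T cells, were highest in Flica-negative CD4 cells. Ccl1 (ENSMUSG00000020702, chr11:82176657-82305690, minus strand) had no read in any of the 6 control libraries. It was at 152, 172 and 130 normalized counts in Flica-negative CD4 cells, at least 50.9-fold higher than the level of 3 counts per library, and at least 47.5-fold without the highest library (adjusted p = 2.7e-06). In Flica-negative CD8 cells it was at 4.26, 10.3 and 0 and in Flica-positive CD8 cells at 59.8, 69.5 and 20.3. No CD8 library reached the lowest CD4 library of day 7, and the Flica-negative lineages differed 31.3-fold (log2 fold change 4.95 ± 0.65, adjusted p = 1.6e-05). Ccr8 (ENSMUSG00000042262, chr9:120092114-120094906, plus strand) was at 88.2, 28.0 and 77.4 in control and 170, 325 and 260 in Flica-negative CD4 cells, 3.90-fold higher (log2 fold change 1.96 ± 0.44, adjusted p = 0.0023). In CD8 cells it was at 0.881, 0 and 0 in control, 49.0, 72.8 and 62.1 in Flica-negative and 73.9, 167 and 81.3 in Flica-positive cells. The day 7 CD8 libraries overlapped the control CD4 libraries, and the ratio of summed counts of Flica-negative over control CD8 cells was 204 (exact 95% interval 36.1 to 8081, counting error only, adjusted p = 8.8e-05). Ccl17, a ligand of Ccr4, and Ccl24, or eotaxin-2, a ligand of Ccr3, stayed low, with group means of at most 12.3 and 26.4 normalized counts, both in Flica-positive cells. Neither was called in a comparison other than that of Flica-positive with control CD8 cells.

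The bases before the start of Ccl1 and Cxcl10 are shown because these ligands were near 0 or low in control libraries and rose in Flica-negative CD4 cells of day 7. Those of Cxcl2 and Cxcl9 are shown because both rose in Flica-positive over Flica-negative CD8 cells. Each run is the 250 bases upstream of the RefSeq start on the gene's own strand (GRCm38.p6), at chr11:82179813-82180062 (minus strand), chr5:92348890-92349139 (minus strand), chr5:90903649-90903898 (plus strand) and chr5:92328080-92328329 (minus strand). RefSeq and GENCODE M21, the source of the gene positions given here, place the starts of Ccl1 and Cxcl2 differently. The run of Ccl1 lies inside its GENCODE span, and that of Cxcl2 ends past its GENCODE start. Capitals mark matches, on either strand, to GGGANNNNCC, letters bound by NF-kB factors, or to GAAANNGAAA, the core of an interferon-stimulated response element.
Ccl1: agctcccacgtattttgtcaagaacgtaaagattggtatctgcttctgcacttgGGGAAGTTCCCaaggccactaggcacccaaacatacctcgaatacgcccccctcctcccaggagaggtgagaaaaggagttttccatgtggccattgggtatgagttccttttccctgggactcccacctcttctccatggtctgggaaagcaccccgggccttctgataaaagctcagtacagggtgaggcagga
Cxcl10: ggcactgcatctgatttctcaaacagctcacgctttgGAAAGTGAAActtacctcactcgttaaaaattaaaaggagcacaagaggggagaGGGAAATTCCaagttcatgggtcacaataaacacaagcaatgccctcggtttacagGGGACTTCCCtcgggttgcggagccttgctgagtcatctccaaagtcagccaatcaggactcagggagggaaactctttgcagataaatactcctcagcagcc
Cxcl2: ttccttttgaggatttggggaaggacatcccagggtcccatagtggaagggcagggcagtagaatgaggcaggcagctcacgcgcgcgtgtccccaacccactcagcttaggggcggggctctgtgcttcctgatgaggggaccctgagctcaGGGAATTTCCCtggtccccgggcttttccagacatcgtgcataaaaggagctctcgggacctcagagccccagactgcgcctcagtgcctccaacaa
Cxcl9: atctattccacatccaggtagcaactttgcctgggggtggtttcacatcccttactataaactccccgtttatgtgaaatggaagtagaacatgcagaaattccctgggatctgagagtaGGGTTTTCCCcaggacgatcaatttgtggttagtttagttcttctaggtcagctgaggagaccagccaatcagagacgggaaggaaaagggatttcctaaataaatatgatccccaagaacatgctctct

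GGGANNNNCC is in all 4 runs. In Ccl1 and Cxcl2 matches on both strands overlap, and the later of the 2 matches in Cxcl10 reads on both strands. The window of Ccl3 held neither pattern and is not printed. Of the 27 genes, 21 had a RefSeq window, and 9 of these held GGGANNNNCC (Ccl1, Ccr1, Ccr3, Ccr6, Ccr8, Ccr9, Cxcl10, Cxcl2 and Cxcl9), beside 17.6% of all 32851 windows of the same length. GAAANNGAAA was in 1 of them, Cxcl10, beside 2.98% of all windows. A match says only that the letters are there.

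The interferon-induced ligands of Cxcr3 stayed low, with no library above 182 normalized counts. Cxcl10 (ENSMUSG00000034855, chr5:92346638-92348889, minus strand) was at 27.9, 20.3 and 0 normalized counts in control and 138, 116 and 110 in Flica-negative CD4 cells (7.57-fold, log2 fold change 2.93 ± 0.84, adjusted p = 0.0098). In CD8 cells it was at 32.6, 37.6 and 34.6 in control, 108, 70.0 and 69.0 in Flica-negative and 83.2, 118 and 130 in Flica-positive cells. Day 7 libraries were above control libraries in each lineage, while the Flica-positive and Flica-negative libraries overlapped. The call of Cxcl10 between Flica-negative and control CD8 cells (log2 fold change 1.23 ± 0.46, adjusted p = 0.037) was lost without CD8 control replicate 1, 2 or 3 or CD8 Flica-negative replicate 1, 2 or 3 (adjusted p from 0.055 to 0.13), and under TMM scaling (adjusted p = 0.17). Cxcl10 overlaps the annotated gene Art3. Cxcl9 (ENSMUSG00000029417, chr5:92321347-92328079, minus strand) was at 182, 108 and 32.3 in Flica-positive and 25.6, 13.1 and 10.4 in Flica-negative CD8 cells, and no library of the other 3 groups exceeded 11.6. Its Flica-positive libraries spread widely and all lay above the Flica-negative ones (6.58-fold, log2 fold change 2.71 ± 0.78, adjusted p = 0.024). That call was lost without CD8 Flica-negative replicate 2 or 3 or CD8 Flica-positive replicate 1 or 2 (adjusted p from 0.061 to 0.13), and under TMM scaling (adjusted p = 0.068).

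Between Flica-negative CD4 and CD8 cells on day 7, 11 of the 27 genes were called, 5 higher and 6 lower in CD4 cells, beside 22.0% of all listed genes (9.66% higher and 12.3% lower). Higher in CD4 cells were Ccl1, Ccr7 (5.42-fold), Ccr8 (4.11-fold), Cxcr5 (4.25-fold) and Ccr9 (1.97-fold), the last at adjusted p = 0.0498 and lost when any 1 of the 6 libraries was left out (adjusted p from 0.079 to 0.13). Lower in CD4 cells were Ccl3, Ccl4, Ccl5, Cx3cr1 (5.28-fold), Ccl6 (4.51-fold) and Cxcr2 (6.09-fold, adjusted p = 0.0099, and adjusted p = 0.097 without CD8 Flica-negative replicate 2). Ccl6 and Cxcr2 are genes of neutrophils and monocytes, and 10 of the 13 neutrophil markers were also called lower in the Flica-negative CD4 libraries. Of the 11 listed macrophage and monocyte markers 1 was called lower and 10 were not called. The part of these cells in the lower values of Ccl6 and Cxcr2 was not tested.

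The response itself, Flica-negative over control, differed between the lineages for 8 of the 27 genes, all of them receptors, beside 10.2% of all listed genes (5.65% with a higher and 4.60% with a lower CD4 response). The CD4 response was above the CD8 response for Ccr9 (difference 4.96 ± 0.40 on the log2 scale, adjusted p = 4.9e-07), Cxcr6 (3.62 ± 0.29, adjusted p = 4.9e-07), Ccr7 (2.42 ± 0.26, adjusted p = 6.7e-06), Cxcr5 (2.37 ± 0.39, adjusted p = 0.00058) and Cxcr3 (1.20 ± 0.32, adjusted p = 0.021). For Ccr9, Ccr7 and Cxcr5 this was a smaller fall or no called change in CD4 cells, and for Cxcr6 and Cxcr3 a steeper rise from a lower start. It was below the CD8 response for Cx3cr1 (-3.30 ± 0.62, adjusted p = 0.0017), Ccr8 (-5.23 ± 1.03, adjusted p = 0.0027) and Ccr3 (adjusted p = 0.041). The values of Ccr8 and Ccr3 rest on 1 read and no read in the control CD8 libraries. Ccr3 (ENSMUSG00000035448, chr9:124021972-124031689, plus strand), the eotaxin receptor of eosinophils and basophils, was at 5.58, 3.87 and 4.45 and 31.7, 23.4 and 26.4 in control and Flica-negative CD4 cells and at 28.8, 26.1 and 33.7 in Flica-negative CD8 cells. Its day 7 levels overlapped between the lineages, and its control CD8 libraries had no read. The interaction was lost when any library but CD4 control replicate 3 was left out (adjusted p from 0.054 to 0.085), and that of Cxcr3 without CD4 control replicate 1 or 2, CD8 control replicate 3 or CD8 Flica-negative replicate 3 (adjusted p from 0.0503 to 0.057). The CD4 rise of Ccr3 (log2 fold change 2.53 ± 0.91, adjusted p = 0.03) was lost without CD4 control replicate 1 or 2 or CD4 Flica-negative replicate 1 or 3 (adjusted p from 0.061 to 0.081). Both calls of Ccr3 were also lost under TMM scaling (adjusted p = 0.073 for the interaction and 0.0504 for the CD4 rise).

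**Figure D3:**
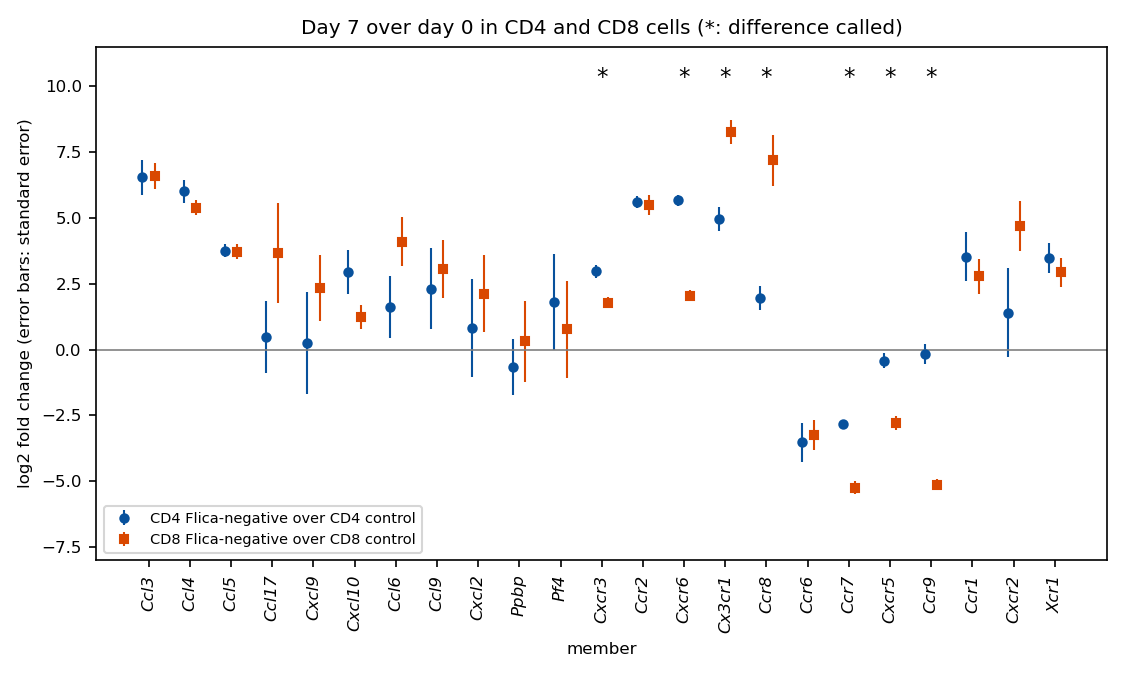
Log2 fold change of day 7 Flica-negative over day 0 control cells (vertical axis, bars are standard errors) for 23 of the genes, in CD4 (circles) and CD8 cells (squares), with a star where the interaction was called. Ccl1, Ccl2, Ccl24 and Ccr3 are left out because a control group had no read. The error bars of Ccl3, Ccl4, Ccl5 and Ccr2 overlap between CD4 and CD8 cells, and the points of Ccr9 lie at -0.18 in CD4 and -5.14 in CD8 cells.

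The Flica-positive fraction of the day 7 CD8 cells differed from the Flica-negative fraction in 8 of the 27 genes, all higher in Flica-positive cells, beside 23.2% of all listed genes (20.6% higher and 2.63% lower). With TMM scaling, under which the median change of all genes went from 0.38 to -0.11 on the log2 scale, 6 were called higher and 5 lower, beside 26.0% of all listed genes (16.1% higher and 9.90% lower). The 8 were 6 ligands (Ccl2, Ccl6, Ccl9, Cxcl2, Cxcl9 and Ppbp) and 2 receptors (Ccr1 and Cxcr2), and the median log2 fold change was 2.80 over the 14 ligands and 0.26 over the 13 receptors, beside 0.38 over all listed genes. Cxcr2 (ENSMUSG00000026180, chr1:74153989-74161246, plus strand), the receptor by which neutrophils follow Cxcl1 and Cxcl2, was at 610, 1101 and 1772 normalized counts in Flica-positive and 37.3, 74.7 and 38.0 in Flica-negative CD8 cells, and at most 12.3 in a library of the other 3 groups. The groups were far apart (23.2-fold, log2 fold change 4.53 ± 0.45, adjusted p = 8.8e-06, and 3.92 under TMM scaling). Ccr1 (ENSMUSG00000025804, chr9:123962124-123968692, minus strand), a receptor of Ccl3, Ccl5, Ccl6 and Ccl9 on myeloid cells, was at 767, 1276 and 1226 in Flica-positive and 29.8, 71.8 and 68.2 in Flica-negative CD8 cells. Control CD8 libraries had 11.4, 8.06 and 4.81, and CD4 libraries 5.58, 0 and 9.78 in control and 47.6, 49.1 and 84.9 in Flica-negative cells. The lowest Flica-positive library was thus far above all others (19.2-fold over Flica-negative, log2 fold change 4.26 ± 0.38, adjusted p = 4.8e-06), and the Flica-negative libraries were above the controls in each lineage (6.98-fold in CD8 and 11.8-fold in CD4 cells, adjusted p = 0.0042 and 0.0061).

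Ccl6 (ENSMUSG00000018927, chr11:83587882-83593087, minus strand) and Ccl9 (ENSMUSG00000019122, chr11:83572919-83578636, minus strand), 2 ligands of Ccr1 made by myeloid cells, both rose. Ccl6 was at 582, 1098 and 1021 in Flica-positive, 132, 78.4 and 104 in Flica-negative and 2.64, 15.2 and 0 in control CD8 cells (log2 fold change 3.10 ± 0.34, adjusted p = 2e-05, between the first and the second). Ccl9 was at 192, 239 and 250, 35.2, 16.8 and 39.7 and 2.64, 8.06 and 0 in the same order (log2 fold change 2.89 ± 0.49, adjusted p = 0.00077). None of these groups overlapped with its neighbour. In Flica-negative CD4 cells Ccl6 was at 22.9, 29.0 and 17.6 and Ccl9 at 18.5, 6.70 and 16.8, neither called against control, although Ccl9 was without CD4 control replicate 3 (adjusted p = 0.014). The call of Ccl9 between Flica-negative and control CD8 cells (log2 fold change 3.05 ± 1.10, adjusted p = 0.031) was lost without CD8 control replicate 1 or CD8 Flica-negative replicate 1 or 3 (adjusted p from 0.076 to 0.097), and under TMM scaling (adjusted p = 0.058). Cxcl2 (ENSMUSG00000058427, chr5:90903871-90905938, plus strand), a neutrophil attractant, was at 103, 184 and 258 in Flica-positive and 12.8, 20.5 and 10.4 in Flica-negative CD8 cells, without overlap (12.5-fold, log2 fold change 3.63 ± 0.60, adjusted p = 0.00058). Ccl2 (ENSMUSG00000035385, chr11:82035571-82037453, plus strand), the main ligand of Ccr2, was at 30.5, 28.2 and 109 in Flica-positive and 2.13, 0 and 6.04 in Flica-negative CD8 cells, and had no read in the libraries of the other groups. Flica-positive replicate 3 was the highest, and the call (log2 fold change 4.28 ± 1.26, adjusted p = 0.028) was lost without CD8 Flica-negative replicate 1 or 2 or CD8 Flica-positive replicate 3 (adjusted p from 0.083 to 0.087). Ppbp (ENSMUSG00000029372, chr5:90768518-90770063, plus strand), a platelet ligand of Cxcr2, was at 42.2, 107 and 53.8 in Flica-positive and 0, 11.2 and 8.63 in Flica-negative CD8 cells (log2 fold change 3.32 ± 1.10, adjusted p = 0.047), a call lost without CD8 Flica-negative replicate 1, 2 or 3 or CD8 Flica-positive replicate 1 or 2 (adjusted p from 0.062 to 0.18) and under TMM scaling (adjusted p = 0.075). Pf4, the other platelet chemokine, had means of 42.9 and 3.11 with adjusted p = 0.092 (0.031 by DESeq2, and 0.019 without CD8 Flica-negative replicate 2). The 3 listed megakaryocyte and platelet markers of 8 summed to 2571 to 3174 in Flica-positive and 2754 to 3509 in Flica-negative CD8 cells. Most of that sum was Itgb3, with means of 2625 and 3071, which was not called between them. Itgb3 also had a mean of 3534 in control CD4 cells. Itga2b was called higher in Flica-positive cells (log2 fold change 2.62 ± 0.60, adjusted p = 0.0063).

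Markers of myeloid cells moved with these genes. All 13 neutrophil markers and 10 of the 11 listed macrophage and monocyte markers were called higher in the Flica-positive fraction, for example Retnlg (log2 fold change 5.09 ± 0.41, adjusted p = 2.1e-06) and Cd14 (log2 fold change 4.82 ± 0.44, adjusted p = 5.1e-06). Flica-positive replicate 1 had the lowest neutrophil sum, 199908 against 356604 and 385957, and was also the lowest of the 3 for 6 of the 8 called genes (Cxcr2, Ccr1, Ccl6, Ccl9, Cxcl2 and Ppbp). Of the other 2, Cxcl9 was highest in replicate 1 and Ccl2 lowest in replicate 2. The part of these cells or of their RNA in the higher chemokine values was not tested. The 4 listed dendritic cell markers of 7, of which Xcr1 is 1, summed to 5105 to 6555 in Flica-positive and 6882 to 9810 in Flica-negative CD8 cells. Most of that sum was Itgax, which was called lower (log2 fold change -0.70 ± 0.21, adjusted p = 0.029). Flt3 (log2 fold change 3.83 ± 0.57, adjusted p = 0.00026) and Batf3 (log2 fold change 5.1 ± 1.4, adjusted p = 0.019) were called higher, and Xcr1 was not called. The 4 listed erythroid markers of 7 summed to 1343 to 110207 and 268 to 3531 in the same order. Vwf, the only listed gene of 7 endothelial and stromal markers, was at 48.1 to 137 and 0 to 1.06.

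**Figure D4:**
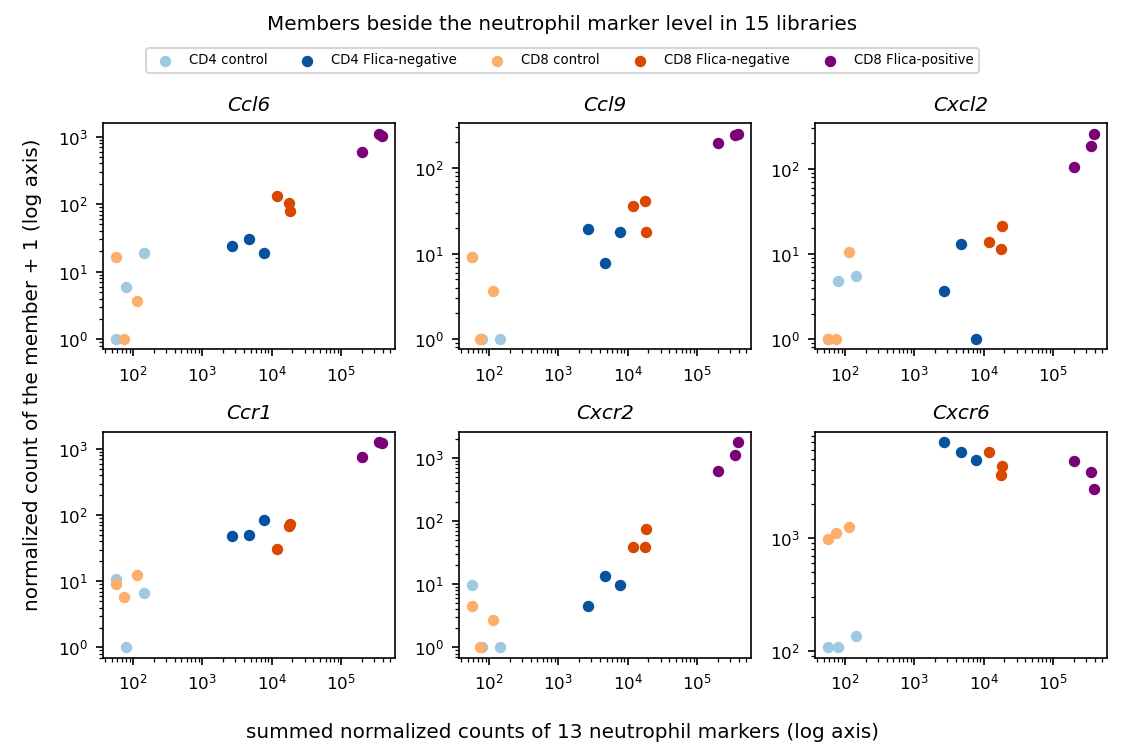
Normalized count + 1 of 6 genes (vertical, log axis) against the summed normalized counts of 13 neutrophil markers (horizontal, log axis) in the 15 libraries, coloured by population. In the panels of Ccl6, Ccl9, Cxcl2, Ccr1 and Cxcr2 the 3 Flica-positive libraries are at the upper right, and in that of Cxcr6 they lie at 4808, 3796 and 2712, overlapping the Flica-negative libraries.

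The genes typical of effector T cells were not called between the fractions of day 7 CD8 cells. Ccl3 was at 3015, 2611 and 1463 in Flica-positive cells and Ccl4 at 2564, 2135 and 1702, overlapping the Flica-negative libraries (log2 fold change 0.47 ± 0.27, adjusted p = 0.24 for Ccl3, and adjusted p = 1 for Ccl4). Ccl5 was at 16227, 15548 and 10519, all below the lowest Flica-negative library (log2 fold change -0.61 ± 0.24, adjusted p = 0.082). Cxcr3 (2741, 2657 and 2117) and Ccr2 (3807, 3308 and 3295) were also below all Flica-negative libraries without a call (log2 fold change -0.43 ± 0.21, adjusted p = 0.16 and log2 fold change -0.55 ± 0.23, adjusted p = 0.1), and Ccr7 (121, 125 and 77.7) likewise (log2 fold change -0.96 ± 0.41, adjusted p = 0.11). Cx3cr1 (1610, 1306 and 1069) overlapped the Flica-negative libraries by 1 library (log2 fold change -0.64 ± 0.24, adjusted p = 0.075). Under TMM scaling 5 genes, Ccl5, Cxcr3, Ccr2, Ccr7 and Cx3cr1, were called lower in Flica-positive cells, with log2 fold changes of -1.22, -1.03, -1.17, -1.51 and -1.24, where the median of all listed genes was -0.11. Cxcr6 (log2 fold change -0.28 ± 0.25, adjusted p = 0.46), Cxcr5 (161, 154 and 69.4, log2 fold change 0.26 ± 0.47, adjusted p = 0.73), Ccr9 (31.6, 85.9 and 26.3, log2 fold change -0.59 ± 0.66, adjusted p = 0.55), Ccr6 (9.38, 2.35 and 28.7, log2 fold change 0.76 ± 1.36, adjusted p = 0.72) and Ccr8 (log2 fold change 0.81 ± 0.55, adjusted p = 0.31) were called under neither scaling. With TMM scaling the values of Ccl3, Cxcl10, Cxcr5 and Xcr1 turned from above to below 0, from 0.47, 0.43, 0.26 and 0.51 to -0.12, -0.21, -0.30 and -0.06, none of them called. Ccl1 was 10.3-fold higher without overlap and without a call (log2 fold change 3.33 ± 1.25, adjusted p = 0.074), and Ccr3 was at 64.5, 38.9 and 95.7 (log2 fold change 1.16 ± 0.69, adjusted p = 0.25). Some of these results hung on the test used or on 1 library. Ccl1 was called higher by DESeq2 (adjusted p = 0.016), with the replicate number as a block (0.044) and in a fit of all 15 libraries (0.033). With the block Ccl5, Ccr2 and Cx3cr1 were called lower (adjusted p = 0.0067, 0.037 and 0.014). Cx3cr1 was also called lower by DESeq2 (adjusted p = 0.044), and Ccr7 in the fit of all 15 libraries (adjusted p = 0.0045). Without CD8 Flica-positive replicate 3, Ccl3 and Ccl1 were called higher (adjusted p = 0.039 and 0.029). Ccl5 and Cx3cr1 were called lower without CD8 Flica-negative replicate 3 (adjusted p = 0.044 for each), and Cx3cr1 also without CD8 Flica-positive replicate 1 (adjusted p = 0.0499).

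**Figure D5:**
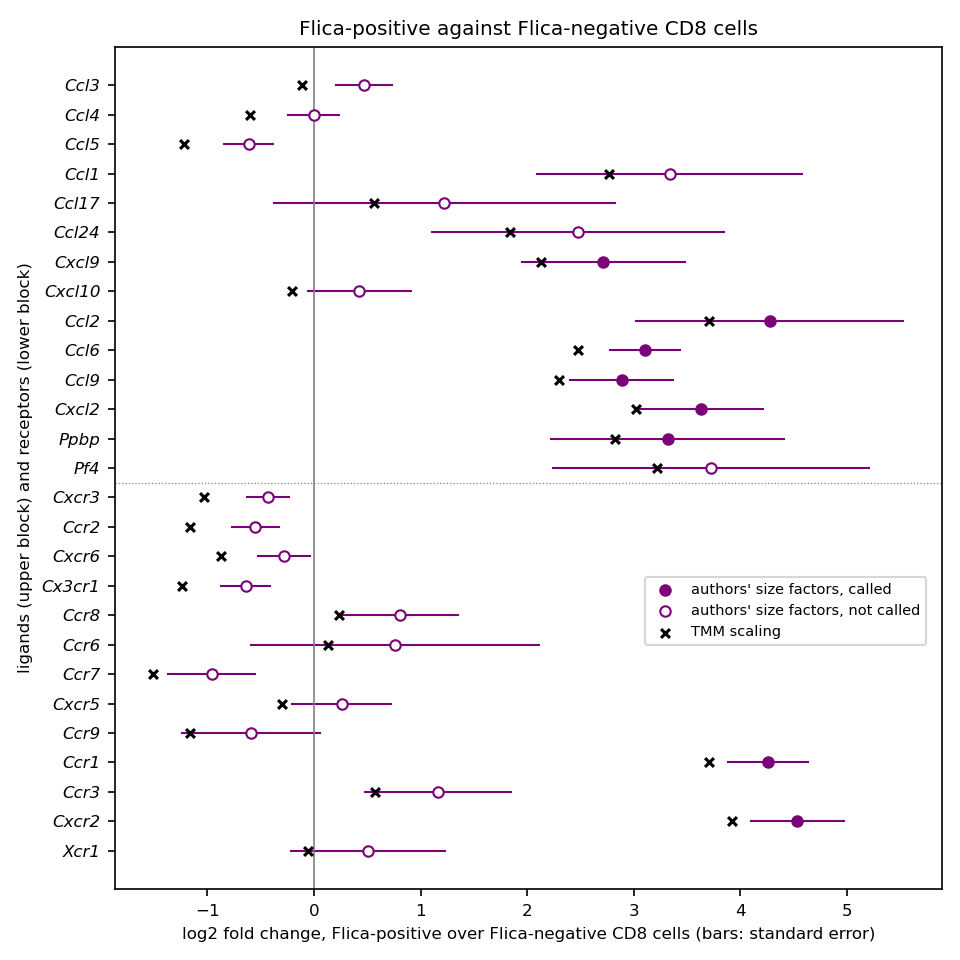
Log2 fold change of Flica-positive over Flica-negative CD8 cells (horizontal axis, bars are standard errors) for the 27 genes, with filled circles where called, open circles where not, and crosses for TMM scaling. Ccr1 and Cxcr2 lie at 4.26 and 4.53, and the crosses lie to the left of the circles throughout.

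Against control CD8 cells all 27 genes were called in Flica-positive cells, 23 higher and 4 lower (Ccr6, Ccr7, Ccr9 and Cxcr5), beside 70.7% of all listed genes (46.8% higher and 23.9% lower). TMM scaling moved the median of all listed genes by -1.65, from 2.04 to 0.38, and gave 20 calls, 16 higher and 4 lower, beside 62.2% of all listed genes (27.0% higher and 35.2% lower). The 7 that were no longer called were Ccl17, Cxcl10, Cxcr3, Cxcr6, Pf4, Ppbp and Xcr1, and for Cxcl10 and Cxcr3 the direction turned, from 1.66 to -0.03 and from 1.34 to -0.28 on the log2 scale. With the authors' size factors Ccl3 was 135-fold, Ccl4 41.8-fold and Ccl5 8.61-fold above control, Ccr1 134-fold and Cxcr2 652-fold above, and Ccr7 74.2-fold and Ccr9 53.2-fold below. Against groups with no read, Ccl2 was at least 20.4-fold higher (at least 10.7-fold without the highest library), Ccl1 at least 18.2-fold and Ccr3 at least 24.2-fold. Some of these calls hung on single libraries. The fall of Ccr6 (log2 fold change -2.48 ± 0.99, adjusted p = 0.049) was lost without CD8 control replicate 1, 2 or 3 or CD8 Flica-positive replicate 1 or 2 (adjusted p from 0.074 to 0.15), and the rise of Cxcl10 without CD8 control replicate 1, 2 or 3 or CD8 Flica-positive replicate 2 or 3 (adjusted p from 0.0503 to 0.087). The rises of Ccl17, Ppbp and Xcr1 were lost without CD8 control replicate 1, 2 or 3 or CD8 Flica-positive replicate 3 (adjusted p from 0.051 to 0.081), without CD8 control replicate 2 or CD8 Flica-positive replicate 2 (adjusted p from 0.089 to 0.093) and without CD8 control replicate 1 or 2 or CD8 Flica-positive replicate 1 (adjusted p from 0.052 to 0.066), in that order. Xcr1 (ENSMUSG00000060509, chr9:123852315-123862029, minus strand), the receptor of Xcl1 on cross-presenting dendritic cells, was at 376, 304 and 16.7 in Flica-positive, 225, 142 and 123 in Flica-negative and 9.69, 19.7 and 34.6 in control CD8 cells, and at 260, 161 and 114 and 7.82, 9.67 and 29.4 in Flica-negative and control CD4 cells. Flica-positive replicate 3 fell among the controls, while the Flica-negative libraries of both lineages were all above them (adjusted p = 0.00091 in CD8 and 0.00023 in CD4 cells).

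Many of the 27 genes are neighbours in the genome, and neighbours moved alike in some comparisons and apart in others. In a stretch of 435 kb of chromosome 9 (chr9:123678439-124113557, GENCODE M21, GRCm38) lie 6 of the receptors, in the order Ccr9, Cxcr6, Xcr1, Ccr1, Ccr3 and Ccr2. In Flica-negative over control CD8 cells Ccr9 fell and the other 5 rose, and in Flica-positive over Flica-negative CD8 cells Ccr1 rose by 4.26 on the log2 scale while Ccr2, at -0.55, was not called. Over 139 kb of chromosome 11 lie Ccl5, Ccl9, Ccl6, Ccl3 and Ccl4. All 5 rose in Flica-negative over control CD8 cells, by 3.72, 3.05, 4.10, 6.60 and 5.38 on the log2 scale, and again in Flica-positive over control cells. Between the Flica fractions of CD8 cells the inner pair Ccl9 and Ccl6 rose, at 2.89 and 3.10, and Ccl5 and Ccl3, at -0.61 and 0.47, and Ccl4 were not called.

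Of 64 genes of chemokine signalling and migration that the choice by name left out, 25 are listed. In Flica-positive over Flica-negative CD8 cells 14 were higher and 2 lower, with a median log2 fold change of 1.44, beside 23.2% called and a median of 0.38 over all listed genes. Those with the largest changes were Fpr1, the formyl peptide receptor (log2 fold change 5.29 ± 0.72, adjusted p = 0.00013), Rgs18, a regulator of G protein signalling (log2 fold change 5.02 ± 0.92, adjusted p = 0.0014), and Ptafr, the platelet-activating factor receptor (log2 fold change 4.80 ± 0.96, adjusted p = 0.0025), which are known from myeloid cells and platelets. In Flica-positive over control CD8 cells it was 20 higher and 5 lower, beside 70.7%. The largest rises were in Fpr2, another formyl peptide receptor, with no read in control and a mean of 1236 normalized counts in Flica-positive cells, in the leukotriene B4 receptor Ltb4r1, with means of 1.18 and 1474, and in the complement receptor C5ar1, with means of 1.18 and 948. In Flica-negative over control cells 12 were higher and 5 lower in CD8 cells, beside 66.5%, and 13 and 7 in CD4 cells, beside 57.6%. Ltb4r1 rose to means of 188 in CD8 and 246 in CD4 cells (adjusted p = 7.3e-05 and 3e-07), and Cmklr1, the chemerin receptor, rose in CD8 cells from a mean of 2.35 to 484 (log2 fold change 7.58 ± 0.80, adjusted p = 1.5e-05). Between Flica-negative CD4 and CD8 cells 4 were higher and 7 lower in CD4 cells, beside 22.0%, with the largest differences in Fpr2 (lower, log2 fold change -2.85 ± 0.62, adjusted p = 0.0023), Rgs10 (higher, log2 fold change 2.24 ± 0.27, adjusted p = 5.4e-06) and Cmklr1 (lower, log2 fold change -2.20 ± 0.42, adjusted p = 0.00074), and between control cells 3 were higher and 1 lower, beside 12%, that 1 being Tbx21, the transcription factor T-bet (log2 fold change -1.92 ± 0.26, adjusted p = 5.3e-07).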

How the data were processed

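RNA of 15 sorted spleen T cell libraries (5 populations of 3) was sequenced as paired-end reads. Per the submitters' processing notes the reads were aligned with STAR 2.7.1a to GRCm38 and tested with DESeq2; the read counter, its strand setting and its annotation are not given in the sources used here. The authors deposited 4 tables of the genes that passed their own test with a log2 fold change beyond 2 in either direction, each with raw read counts per gene in all 15 libraries, and with the mean signal over libraries after division by DESeq2 size factors. Their columns of fold changes and p-values and their enrichment tables were not used.

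The tables were joined to 4567 genes, of which 4423 have a symbol. Size factors were recovered from the deposited means and gave these back to a relative error of 5.8e-15 at most. Each pair of groups was fitted on all 4567 genes with edgeR 4.0.16 (quasi-likelihood test, limma 3.58.1, R 4.3.3) with these factors and Benjamini-Hochberg adjustment. The difference of the CD4 and CD8 responses was tested as an interaction over the 12 control and Flica-negative libraries. The steps were tested on simulated counts. The alternatives were TMM scaling over the listed genes, DESeq2 1.42.0, a mean of at least 10 normalized counts, the replicate number as a block, all 15 libraries in 1 fit, and each library left out. Counts of listed genes are no library totals, so the sequencing depth is unknown.

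Genes were given by library where they were called in at least 1 pair of groups and had a group mean of at least 50 normalized counts. Of the signalling list and the marker lists, at most the 3 genes with the largest called changes and a group mean of at least 50 were named per comparison, beside Cd8a, Vwf, Ms4a1, Elane and Ly6g, which were chosen after their values were seen. The genes, roles and lists were chosen with earlier results of these data known. A group with no read was set to 3 counts per library for lower bounds, and groups with 1 to 3 counts were given a ratio with an exact 95% interval, both of which cover counting error only. Library replicates differed by more than sampling noise in every group (chi-square per degree of freedom 12.2 to 246). The labels call them biological replicates. The authors give ranges of mice per sort, and the exact number behind each library is not given in the sources used here. Promoters came from RefSeq (GRCm38.p6), where 21 of the 27 genes matched. 1 further gene chosen by name is not reported here. Python 3.11.15 with pandas 2.3.3 was used for summaries.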

Additional observations from a re-analysis of the deposited data

Results flagged for a closer look

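For 8 receptors the day 7 response, Flica-negative over control, differed between CD4 and CD8 cells by the interaction test (edgeR, adjusted p below 0.05). Chance and the selection of the listed genes bear on such a count, and 10.2% of all listed genes were called in the same test. The difference, CD4 response minus CD8 response on the log2 scale, was 4.96 for Ccr9, 3.62 for Cxcr6, 2.42 for Ccr7, 2.37 for Cxcr5 and 1.20 for Cxcr3, and -3.30 for Cx3cr1, -5.23 for Ccr8 and -5.45 for Ccr3. The fitted values of Ccr3 and Ccr8 depend on control CD8 libraries with no read and 1 read, and are no bounds.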

How the results depend on the processing

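Of 93 calls of the 27 genes over the 7 comparisons, 72 were kept under every alternative run, 21 were lost under at least 1, and 18 pairs of gene and comparison that were not called became called under at least 1. Direction turned in 2 called results, both for Flica-positive against control CD8 cells under TMM scaling, where Cxcl10 came to -0.03 and Cxcr3 to -0.28 on the log2 scale (adjusted p = 0.97 and 0.43), and there the scaling itself lowered the median of all genes by 1.65. TMM scaling also turned 9 values that were not called, those of Ccl3, Cxcl10, Cxcr5 and Xcr1 between the Flica fractions among them. With a library left out the number of the 27 genes called was 6 to 9 between the Flica fractions of day 7 CD8 cells, 22 to 25 for Flica-positive against control, 17 to 19 for Flica-negative against control CD8 cells, 14 to 17 in CD4 cells, 9 to 11 and 5 to 5 between the lineages on day 7 and day 0, and 6 to 8 for the interaction. In the fit of all 15 libraries, Ccl3, Ccl6 and Ccr9 were no longer called between the Flica-negative lineages. Over all listed genes, 1004 calls between the Flica-negative lineages became 640 in that fit, 468 calls of the interaction became 287 under TMM scaling and 711 by DESeq2, and 1060 calls between the Flica fractions became 703 without CD8 Flica-negative replicate 2. The cause was not tested. Ccl17, Ccl24, Ccl2, Pf4 and Ppbp had the fewest reads of the 27 genes, which limits what their libraries can show.

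Whether same-numbered libraries share mice is not given in the sources used here. The main tests did not pair them. Correlations of same-numbered libraries' deviations from their group means were 0.0323 to 0.108 for the Flica fractions, 0.0265 to 0.0964 and 0.0220 to 0.105 between the lineages on day 7 and day 0, and -0.0669 to 0.00066 in the comparisons with day 0. In the first 3 of these comparisons each Flica-positive or CD4 library correlated best with the library of its own number. This was not computed from the side of the other group. With the replicate block 12 of the 27 genes were called between the Flica fractions, with Ccl1, Ccl5, Ccr2 and Cx3cr1 added, 20 for Flica-positive against control (and 2106 of all listed genes instead of 3230), 17 for Flica-negative against control CD8 cells, 14 in CD4 cells, 13 between the lineages on day 7, with Cxcr3 and Cxcr6 added (log2 fold change -0.39 and 0.37, adjusted p = 0.00093 and 0.00014), 5 between them on day 0, and 7 for the interaction.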
